A study of Mus musculus with 35 samples.

Results

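LT-HSCs, the long-term stem cells that renew themselves and sustain blood formation for life, were compared between mice labelled as having lost 1 allele of Ezh2 and mice with both alleles, none of them carrying JAK2-V617F. The comparison holds 11 of the 35 libraries of the study, namely 7 labelled SclCre; Ezh2 +/- (heterozygous) and 4 labelled SclCre with Ezh2 +/+ (control). They were chosen by title alone, and no expression value entered the choice. Both groups carried SclCre, a Cre recombinase driven by elements of the stem cell leukaemia gene that is active in blood stem cells, so the control also expresses Cre. Each library came from 1000 sorted cells, and the sources used here do not give ages, animal identities or how Cre was activated. The heterozygous libraries were 3 from batch 1 and 4 from batch 2, and 3 were labelled female and 4 male. The controls were 2 from each batch and all 4 were labelled female, so that the term for sex in the fit rests on the other groups. The other groups used below were 4 Ezh2 -/- (null) libraries, 6 with JAK2-V617F, 8 with JAK2-V617F and Ezh2 +/-, and, for the genotype check alone, 6 with JAK2-V617F and Ezh2 -/-, all with SclCre. Total counts ran from 13.6 to 34.2 M (mega) counts in the 11 libraries, with a median of 21.3 M, and 13584 to 15073 genes had counts. Stem cell genes were present in all 11 libraries. Kit, the stem cell factor receptor, lay at 757 to 1883 CPM (counts per M of the TMM-scaled library total), and Procr, the endothelial protein C receptor that marks LT-HSCs, at 103 to 274 CPM.

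Ezh2 is the main catalytic subunit of Polycomb repressive complex 2 (PRC2), which methylates lysine 27 of histone H3 and thereby keeps developmental and lineage genes silent. Ezh1 is a paralogous catalytic subunit that can take its place, and Eed and Suz12 hold the core complex together. In blood stem cells PRC2 is known for restraining fetal growth genes and inhibitors of the cell cycle, and loss of EZH2 occurs in myeloid disease. The question of this comparison was what loss of a single allele does to stem cell RNA in the absence of JAK2-V617F.

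The genotype was checked on a part of Ezh2 that the authors counted on its own, next to the whole gene. The part is 178 bases long and its name refers to exons 4 and 5. In the GENCODE transcript Ezh2-201, which has 20 exons on the minus strand of chromosome 6, exons 16 and 17 measure 96 and 82 bases and are the only neighbouring exons that add up to this length. Counted upwards along the chromosome they are the 5th and 4th exon. In GRCm38 exon 16 lies at 6:47533742-47533837 and exon 17 at 6:47532902-47532983. Both are coding and lie in the catalytic SET domain. The match rests on length and order in another genome build than that of the counts, and that these are the deleted exons is not stated in the labels. If the match holds and these are the deleted exons, they are the stretch that tells the alleles apart. Their sequence is shown 5′ to 3′ on the strand of the gene, with exon 16 in lower case and exon 17 in capitals:
Ezh2 exons 16 and 17: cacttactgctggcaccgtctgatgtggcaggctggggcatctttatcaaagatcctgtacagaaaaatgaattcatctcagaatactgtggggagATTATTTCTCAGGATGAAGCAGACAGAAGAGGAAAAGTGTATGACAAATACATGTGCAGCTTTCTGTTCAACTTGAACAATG
The length leaves a remainder of 1 when divided by 3. Whether the counts of the whole gene include those of the part is not known.

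The exon part was below every control in 5 of the 7 heterozygous libraries. The 4 controls held 7.04, 7.34, 6.02 and 8.72 counts in the part per 100 counts of Ezh2 (batch 1 replicates 1 and 2, batch 2 replicates 2 and 4). In batch 2 the libraries labelled heterozygous held 1.74, 4.79, 1.77 and 5.80 (replicates 1 to 4), all 4 below both controls of that batch. In batch 1 they held 9.50, 8.66 and 0, so replicates 1 and 2 lay above both controls of that batch and replicate 3 had no count in the part at all. Its 0 of 831 Ezh2 counts allowed a share of up to 0.361%. Of the 10 libraries labelled null, with or without JAK2-V617F, 9 had no count in the part and 1 had 3 of 627 (0.478%). A heterozygous cell keeps 1 intact allele, so the share of 0 goes against the label of batch 1 replicate 3 and is that of a library labelled null; whether labels were exchanged was not tested. Batch 1 replicate 2, at 8.66 (Wilson 95% interval 7.07 to 10.6), did not show a lower share either. The 8 libraries with JAK2-V617F and Ezh2 +/- held 4.08 to 8.495, overlapping the 6.34 to 9.27 of the 6 libraries with JAK2-V617F alone, so the share does not separate these labels library by library. The difference of the group means was -2.67 points (4.61 ± 3.63, SD, n = 7, against 7.28 ± 1.11, n = 4; exact two-sided permutation p = 0.2). Within batch 2 it was -3.84 points (exact permutation p = 0.133, where 0.0667 is the smallest possible), and within batch 1 -1.14 points (exact permutation p = 1, where 0.1 is the smallest possible). Without the 2 libraries whose labels are doubted, named below, the difference was -2.73 points (exact permutation p = 0.151). Each share rests on 355 to 1449 counts of Ezh2, and the Wilson 95% intervals drawn in the plot of these shares cover counting error only.

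**Figure D1:**
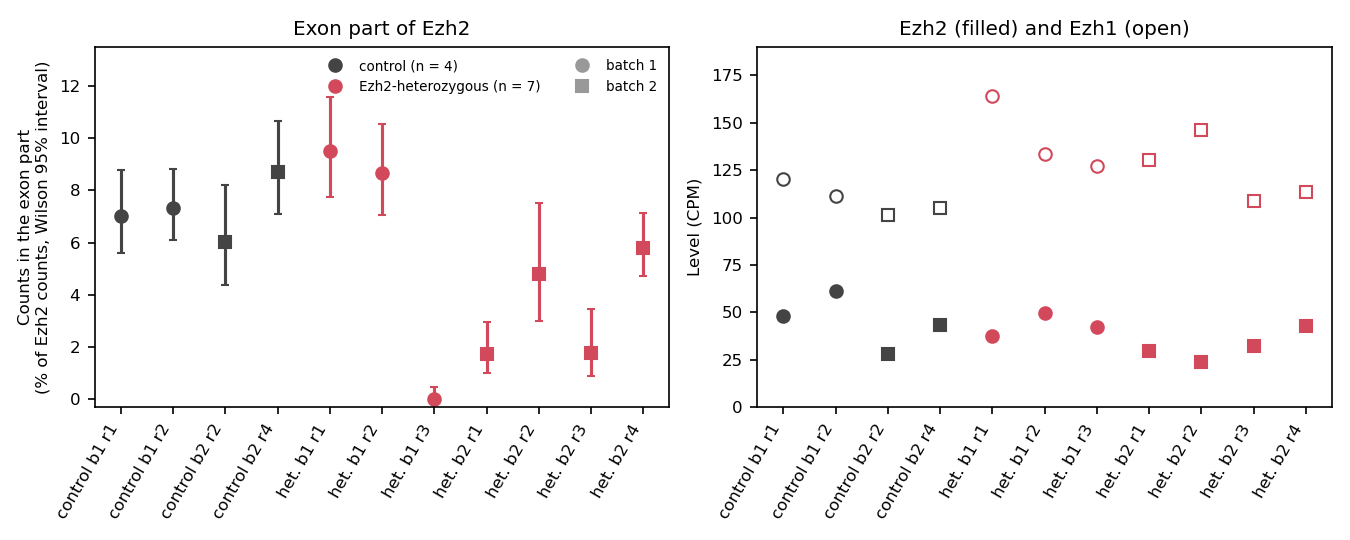
The left panel plots the counts in the exon part of Ezh2 as a percentage of all Ezh2 counts for each of the 4 control (grey) and 7 libraries labelled heterozygous (red), with Wilson 95% intervals; circles are batch 1 and squares batch 2. The right panel plots the level of Ezh2 (filled) and Ezh1 (open) in CPM in the same libraries: Ezh2 overlaps between the groups, and 5 of 7 heterozygous libraries lie above every control for Ezh1.

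A second label check concerned sex. Xist, the RNA that coats the inactive X chromosome and is made in females, measured 391 CPM in the library labelled heterozygous batch 1 replicate 1, although its label says male. The other 3 heterozygous libraries labelled male held 2.42 to 14.4 CPM, and the females among the 11 libraries 640 to 1351 CPM. Results were therefore also computed without batch 1 replicates 1 and 3 of the heterozygous group, below called the 2 doubted libraries. Batch 1 replicate 2 was kept in that alternative, although its share was not lower than in controls.

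Ezh2 RNA itself was lower on average in the heterozygous group, but not beyond the spread. It measured 48.0, 61.3, 27.8 and 43.2 CPM in the controls, and in the heterozygous libraries the lowest, median and highest values were 24, 37.6 and 49.4 CPM. Only 1 of the 7, batch 2 replicate 2, lay below every control. The fitted log2 change was -0.32 ± 0.23 (SE; edgeR adjusted p = 1), with a 95% interval from -0.78 to 0.14. The interval holds 0 and does not reach -1, the value of a 2-fold lower level. Ezh1 measured 120, 112, 101 and 105 CPM in the controls and 109, 130 and 164 CPM (lowest, median, highest) in the heterozygous libraries. Its log2 change was 0.22 ± 0.17 (edgeR adjusted p = 1), and 5 of 7 libraries lay above every control. Per kilobase of gene length, Ezh1 exceeded Ezh2 in all 11 libraries. The ratio of Ezh1 to Ezh2 was 1.65 ± 0.48 in controls (SD, n = 4, range 1.16 to 2.32) and 2.41 ± 0.79 in the heterozygous libraries (n = 7, range 1.69 to 3.87), with overlapping ranges.

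Of the 12 PRC2 genes measured, none passed the test at an adjusted p under 0.05, and the median log2 change was -0.02, beside 0.002 over all 14945 genes tested. Eed, which reads the methyl mark, had a log2 change of -0.02 ± 0.20, Suz12, needed for the stability of the complex, 0.11 ± 0.18, and the histone-binding Rbbp4 and Rbbp7 -0.12 ± 0.11 and -0.05 ± 0.10. Jarid2 and Aebp2, which define one form of the complex, had log2 changes of 0.07 ± 0.18 and -0.02 ± 0.19. Among the Polycomb-like subunits, which bring PRC2 to DNA, Phf1 and Phf19 had the highest log2 changes. Phf1 measured 10.4, 10.9, 15.2 and 29.2 CPM in controls and 15.7, 24.7 and 38.3 CPM (lowest, median, highest) in heterozygous libraries (log2 0.84 ± 0.31, edgeR adjusted p = 0.901). Phf19 measured 5.58 to 10.1 CPM in controls and 4.78 to 23.9 CPM in heterozygous libraries (log2 0.83 ± 0.42, edgeR adjusted p = 0.97). Mtf2, the third of these subunits, had a log2 change of -0.16 ± 0.15. Groups overlapped for each of the 12 genes.

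Across the transcriptome edgeR called no gene. Of 14945 genes tested with edgeR, 0 passed an adjusted p under 0.05 (0.00%), and the smallest adjusted p was 0.538. At an unadjusted p under 0.05 there were 772 genes (5.17%), of which 329 were higher (2.20%) and 443 lower (2.96%) in heterozygous libraries. limma-voom also called 0 genes, and 710 had an unadjusted p under 0.05. The DESeq2 Wald test was run on 19138 genes, without the low-count filter of edgeR. It called 122, 79 higher and 43 lower, and 1046 had an unadjusted p under 0.05. Only 70 of the 122 had passed that filter. Of these 122 genes, 107 averaged under 1 CPM over the 11 libraries, 106 had no count in one of the groups, and in 105 a single library held over 50% of the summed CPM. Among better expressed genes (average log2 CPM of 3 or more), DESeq2 called 8, of which 7 are among the genes described next. These 7 were Ppfibp1, Grsf1, Prkcq, Svip, Faah, Orai3 and Jchain, with DESeq2 adjusted p-values from 0.000339 (Jchain) to 0.0375 (Svip). Above this level lay 10183 genes, of which 8656 (85.0%) had a 95% interval of the log2 change that lay wholly between -1 and 1, that is within a 2-fold change either way, and the median SE was 0.21.

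**Figure D2:**
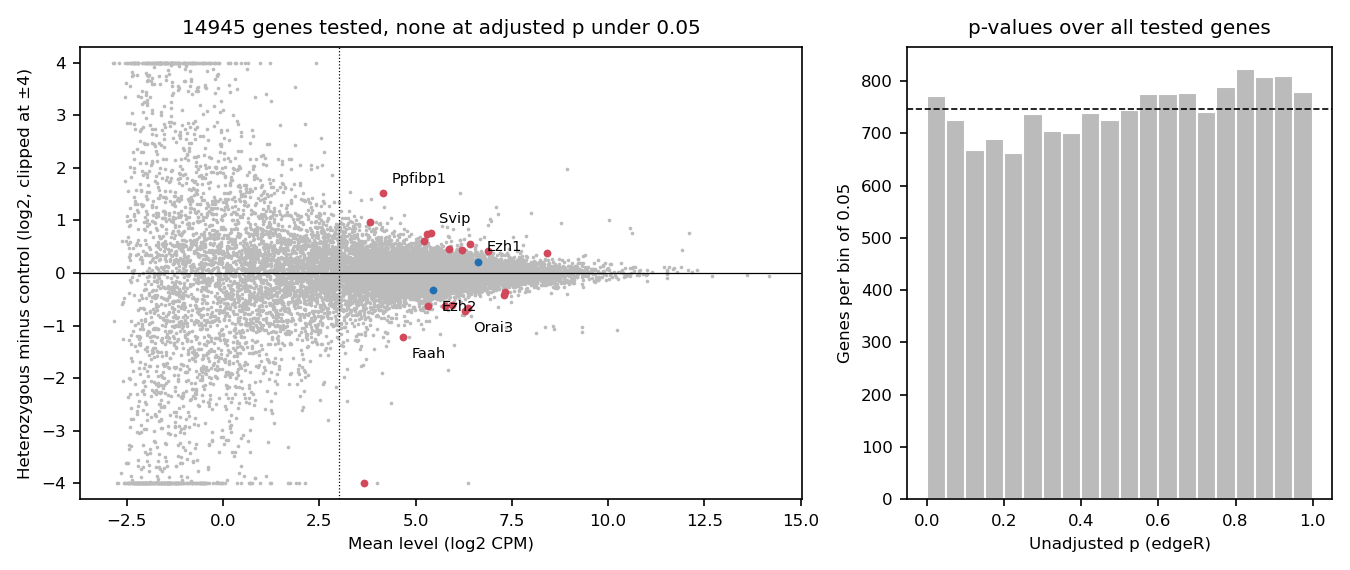
The left panel plots the log2 change (heterozygous minus control, clipped at ±4) against the mean level in log2 CPM for 14945 genes; red points are the 10 higher and 9 lower genes of smallest p above the dotted line at log2 CPM of 3, and blue points are Ezh2 and Ezh1. The right panel is a histogram of the unadjusted p-values in bins of 0.05, with a dashed line at an even spread: the lowest bin holds 772 genes, close to the line.

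No gene passed with edgeR, so the genes of smallest p are given as values, not as changes. They are the 10 expressed genes in the higher direction and 9 of the 10 in the lower. In 46 of the 14945 genes all 7 heterozygous libraries lay on one side of all 4 controls, above them in 24 (0.161%) and below them in 22 (0.147%). Of these 19 genes, 1 was among the 24 and 1 among the 22.

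Ppfibp1, which encodes liprin-beta-1, an adaptor at cell contacts, was the first in the higher direction. It measured 15.8, 5.12, 7.90 and 6.86 CPM in controls, and 13.6, 19.9 and 39.4 CPM (lowest, median, highest) in heterozygous libraries (log2 1.52 ± 0.33, edgeR adjusted p = 0.538). Of the 7 libraries 5 lay above every control, and the highest values, 32.6 and 39.4 CPM, belonged to the 2 doubted libraries, without which the log2 value was 1.23. Svip, an inhibitor of protein degradation at the endoplasmic reticulum, measured 33.3, 28.5, 24.9 and 28.2 CPM in controls and 36.1, 45.7 and 72.7 CPM in heterozygous libraries (log2 0.75 ± 0.21, edgeR adjusted p = 0.709). It was the one gene of these 10 with all 7 libraries above all controls. Prkcq, protein kinase C theta, measured 57.1, 56.6, 76.5 and 62.2 CPM in controls and 61.1, 90.8 and 102 CPM in heterozygous libraries (log2 0.54 ± 0.14, edgeR adjusted p = 0.656), with 6 of 7 above every control.

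Grsf1 encodes a protein that binds RNA in mitochondria. Its controls stood at 39.8 and 46.1 CPM in batch 1 and at 18.6 and 16.8 CPM in batch 2, while the heterozygous libraries ran from 33.3 to 55.2 CPM over both batches. The log2 value was 0.73 ± 0.18 in the pooled fit (edgeR adjusted p = 0.614). In batch 2 alone it was 1.30, where Grsf1 was the only gene called by edgeR (adjusted p = 0.022), and in batch 1 alone the groups overlapped. Nfia, a transcription factor of the nuclear factor I family, measured 272 to 356 CPM in controls and 332 to 584 CPM in heterozygous libraries (log2 0.38 ± 0.11), with 6 of 7 above every control. Pttg1, securin, which restrains the separation of sister chromatids until anaphase, measured 66.6 to 81.3 CPM in controls and 81.1 to 138 CPM in heterozygous libraries (log2 0.45 ± 0.14), also with 6 of 7 above every control. The other 4 genes, Tbc1d19, Arl4a, Dhx32 and Dzip1, had log2 values of 0.41 to 0.97, edgeR adjusted p-values of 0.742 to 0.901 and 3 to 5 libraries above every control.

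In the lower direction Faah, which degrades the endocannabinoid anandamide, measured 22.5, 26.6, 33.6 and 32.6 CPM in controls and 2.77, 14.4 and 21.6 CPM in heterozygous libraries (log2 -1.21 ± 0.31, edgeR adjusted p = 0.614). All 7 heterozygous libraries lay below all 4 controls, and without the 2 doubted libraries the log2 value was -1.12. Orai3, a subunit of store-operated calcium channels, measured 93.0, 74.6, 135 and 107 CPM in controls and 58.5, 64.5 and 87.1 CPM in heterozygous libraries (log2 -0.72 ± 0.18, edgeR adjusted p = 0.538), and 4 of 7 lay below every control. With the replicate number as a block it was the only gene called (log2 -1.03, edgeR adjusted p = 0.0267). Fkbp15, Tmem98, Gmeb1, Rrp8, Tob2 and Sla2 had log2 values of -0.66 to -0.37 and edgeR adjusted p-values of 0.724 to 0.785. Sla2, an adaptor that dampens antigen receptor signalling, had 6 of 7 libraries below every control, and the other 5 genes 2 to 5.

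A further gene in the lower direction rested on 1 library. Jchain, the joining chain of secreted immunoglobulins and a product of plasma cells, measured 160 CPM in control batch 1 replicate 2 and 2.14, 0 and 1.95 CPM in the other controls, against 0 to 0.609 CPM in the heterozygous libraries (edgeR adjusted p = 0.656).

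**Figure D3:**
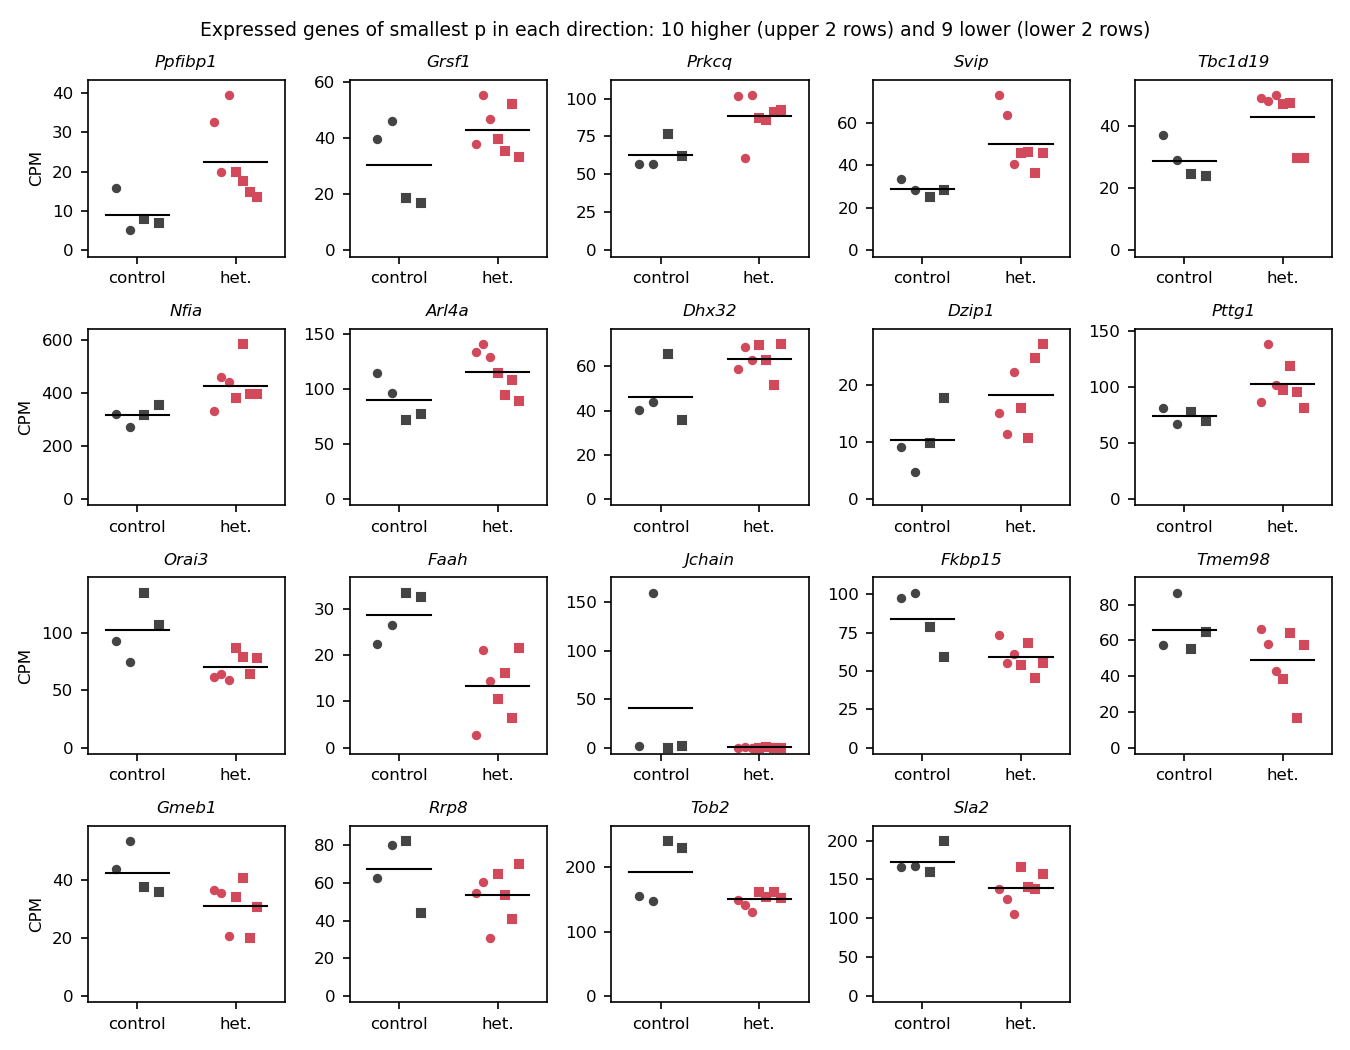
CPM in each library of the 10 expressed genes of smallest p in the higher direction and 9 in the lower, with circles for batch 1, squares for batch 2, grey for control and red for heterozygous, and a line at each group's mean. All 7 heterozygous libraries lie above all 4 controls for Svip and below them for Faah, Jchain is high in 1 control library, and the groups overlap in the other panels.

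The groups did not overlap for 4 further genes, picked from the 46 after their values were seen. Jun, a subunit of the AP-1 transcription factor, measured 762, 612, 712 and 839 CPM in controls and 868, 1587 and 2537 CPM (lowest, median, highest) in heterozygous libraries (log2 0.86 ± 0.36, edgeR adjusted p = 0.952). Neo1, the receptor neogenin, which is expressed on quiescent stem cells, measured 11.5 to 22.4 CPM in controls and 23.1 to 81.2 CPM in heterozygous libraries (log2 1.26 ± 0.52, edgeR adjusted p = 0.952). Itgb2, the common chain of the leukocyte integrins, averaged 77.4 ± 8.89 CPM in controls (SD, n = 4) and 44.9 ± 10.8 CPM in heterozygous libraries (n = 7; log2 -0.79 ± 0.26). Dnmt3b, a de novo DNA methyltransferase, averaged 87.0 ± 4.87 CPM in controls and 64.3 ± 11.1 CPM in heterozygous libraries (log2 -0.38 ± 0.15). Levels in the null libraries (n = 4) were 2123 ± 1254 CPM for Jun, 23.7 ± 9.12 CPM for Neo1, 47.4 ± 14 CPM for Itgb2 and 66.7 ± 8.80 CPM for Dnmt3b. For Neo1 the null mean was nearer to the controls, at 17.1 CPM, than to the heterozygous mean of 38.3 CPM.

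The Polycomb repressive complex 1 (PRC1), which reads the mark of PRC2 and ubiquitinates histone H2A, was represented by 18 genes with a median log2 change of -0.03. Rnf2, its ubiquitin ligase, measured 115 to 189 CPM in controls and 112 to 238 CPM in heterozygous libraries (log2 0.34 ± 0.14, edgeR adjusted p = 0.921). Cbx8, a chromobox reader of the mark, averaged 10.7 ± 4.44 CPM in controls and 4.88 ± 3.42 CPM in heterozygous libraries (log2 -1.30 ± 0.56, edgeR adjusted p = 0.952), with 5 of 7 below every control. The 12 demethylases and other opponents of PRC2 had log2 changes between -0.17 and 0.21 and a median of 0.06. None of these genes passed the test.

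Genes that PRC2 is known to silence showed no called change. Among the inhibitors of the cell cycle, Cdkn2a, the classical Polycomb target, had 0 counts in the controls and 1 in the heterozygous libraries, of 85.2 and 150.2 M counts, and Cdkn2b had none in either. A count of 0 allowed at most 0.0352 CPM in the summed controls and 0.02 CPM in the summed heterozygous libraries. Cdkn1c, the imprinted inhibitor p57 that keeps stem cells quiescent, measured 27.1, 19.5, 36 and 20.2 CPM in controls and 28, 41.9 and 55.9 CPM in heterozygous libraries (log2 0.72 ± 0.27, edgeR adjusted p = 0.901), with 4 of 7 above every control. Cdkn1b, the inhibitor p27, had a log2 change of -0.29 ± 0.15.

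The 21 fetal and imprinted growth genes tested had a median log2 change of 0.34, and 16 of the 21 were positive, beside 50.2% of all genes tested. At an unadjusted p under 0.05, 4 were higher (19%, beside 2.20% of all genes) and 0 lower. Those 4 were Cdkn1c, Igf2bp2, Sgce and Mirg. Igf2bp2, an RNA-binding protein of fetal stem cells, measured 29.6, 7.59, 21.2 and 20.5 CPM in controls and 19.5, 30.7 and 59.0 CPM in heterozygous libraries (log2 0.96 ± 0.43, edgeR adjusted p = 0.952). Sgce, an imprinted sarcoglycan, measured 34.6 to 54.0 CPM in controls and 48.0 to 80.4 CPM in heterozygous libraries (log2 0.42 ± 0.16). Mirg, an imprinted host transcript of microRNAs, averaged 0.0119 CPM in controls and 1.37 CPM in heterozygous libraries, too low a level for a fold. Of the fetal regulators, Hmga2 had a log2 change of 0.23 ± 0.23 and Lin28b, near 0 to 2.85 CPM in all 11 libraries, 1.79 ± 1.22. None passed the test, and the list was chosen with earlier results of these data known.

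Developmental regulators, the classical targets of PRC2 outside blood, were near absence. Of 50 listed genes, 14 had no count in the 11 libraries and 9 passed the filter on low counts. Those 9 had a median log2 change of -0.10, and the one with an unadjusted p under 0.05, Tbx15, had counts only in 1 of the 11 libraries, a control. The 18 Hox genes of the A and B clusters tested, which are active in stem cells, had a median log2 change of -0.02 and none had an unadjusted p under 0.05.

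Among the 56 genes of stem cell identity, 35 had a positive log2 change and the median was 0.10. The signalling receptor Flt3, which marks multipotent progenitors and is low on LT-HSCs, measured 26.6, 58.2, 33.6 and 69.3 CPM in controls and 6.77, 20.7 and 44.8 CPM in heterozygous libraries (log2 -1.06 ± 0.37, edgeR adjusted p = 0.901), with 4 of 7 below every control. Vwf, von Willebrand factor, which marks the platelet-biased part of the stem cell pool, measured 204, 158, 131 and 144 CPM in controls and 161, 212 and 270 CPM in heterozygous libraries (log2 0.68 ± 0.29, edgeR adjusted p = 0.952), with 4 of 7 above every control. Ly6a, the antigen Sca-1, averaged 172 ± 46.5 CPM in controls and 228 ± 59.4 CPM in heterozygous libraries (log2 0.38 ± 0.17). Slamf1, the antigen CD150, had a log2 change of 0.25 ± 0.20 and Cd34 -0.26 ± 0.20. No gene of the list passed the test.

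The 52 genes of proliferation had a median log2 change of -0.14, which was -0.40 in batch 1 alone, -0.07 in batch 2 alone and -0.06 without the term for sex. The 30 mitosis genes had a median of -0.28 with 5 positive, and the 22 genes of DNA replication a median of 0.08 with 13 positive. Ccnb1, cyclin B1, which drives entry into mitosis, measured 13.2, 14.8, 7.58 and 10.5 CPM in controls and 1.67, 4.21 and 10.9 CPM in heterozygous libraries (log2 -0.98 ± 0.38, edgeR adjusted p = 0.901). Cenpa, the histone of centromeres, measured 31.5 to 42.2 CPM in controls and 18.6 to 40.5 CPM in heterozygous libraries (log2 -0.44 ± 0.21). Mki67, the antigen Ki-67, had a log2 change of -0.16 ± 0.30.

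Of 47 interferon-stimulated genes tested, 42 had a positive log2 change, and the median was 0.21. At an unadjusted p under 0.05, 6 were higher (12.8%, beside 2.20% of all genes) and 0 lower. Rsad2, viperin, an antiviral enzyme, measured 47.9, 41.7, 38.8 and 37.5 CPM in controls and 19.3, 76.4 and 114 CPM in heterozygous libraries (log2 0.89 ± 0.29, edgeR adjusted p = 0.901). Of the 7 libraries 6 lay above every control and 1, batch 1 replicate 2, below every control, and without the 2 doubted libraries the log2 value was 0.53. Oasl2 averaged 169 ± 24.5 CPM in controls and 216 ± 40.8 CPM in heterozygous libraries (log2 0.42 ± 0.15), and Ifit1, which binds viral RNA, 52.6 ± 22.3 and 83.5 ± 31.4 CPM (log2 0.84 ± 0.32). All 13 interferon-induced GTPases had positive log2 values, with a median of 0.30. No member passed the test, and summed levels of the list overlapped, at 3833 to 4348 CPM in controls and 3482 to 5779 CPM in heterozygous libraries. The median was 0.17 without the 2 doubted libraries.

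The 23 genes of antigen presentation had a median log2 change of -0.01, and Tap2, a peptide transporter of the class I pathway, measured 363 to 397 CPM in controls and 256 to 377 CPM in heterozygous libraries (log2 -0.39 ± 0.14, edgeR adjusted p = 0.901), with 6 of 7 below every control.

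The immediate-early genes, whose RNA responds within minutes to signals and to cell handling, had a median log2 change of 0.18 over 34 genes, 27 of them positive. The 8 genes of AP-1 had a median of 0.70, and Fos averaged 1930 ± 771 CPM in controls and 3576 ± 1418 CPM in heterozygous libraries (log2 0.75 ± 0.37, edgeR adjusted p = 0.964). The 6 genes of the EGR and NR4A families had a median of 0.08. The medians of the list were 0.65 in batch 1 alone and 0.04 in batch 2 alone. Its summed level was 8100 CPM in control batch 1 replicate 2, 16040 to 22700 CPM in the other controls and 15250 to 34410 CPM in heterozygous libraries. In that low control Fos stood at 910 CPM. The median of the list without this library is not given here.

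Of the remaining pathways, the unfolded protein response had 4 of 23 genes lower at an unadjusted p under 0.05 (17.4%, beside 2.96% of all genes) and 0 higher. They were Atf6 and Eif2ak3, which sense unfolded proteins in the endoplasmic reticulum, Xbp1, a transcription factor of the response, and Creld2. Atf6 measured 54.5, 68.0, 56.7 and 39.1 CPM in controls and 19.7, 36.5 and 50.5 CPM in heterozygous libraries (log2 -0.73 ± 0.27, edgeR adjusted p = 0.901). The median over the 23 genes was -0.125. Their summed levels overlapped, at 4919 to 6094 CPM in controls and 4180 to 7455 CPM in heterozygous libraries. JAK-STAT targets (30 genes), p53 targets (24), mitochondrial electron transport (30), glycolysis (20), cholesterol and fatty acid synthesis (25) and ribosome biogenesis (25) had medians between -0.06 and 0.10. Cyp51, an enzyme of cholesterol synthesis, and Ndufv1, a subunit of complex I, were the only genes in these 6 lists with an unadjusted p under 0.05, at log2 -0.81 ± 0.31 and -0.26 ± 0.11. No gene in any of these lists passed the test.

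**Figure D4:**
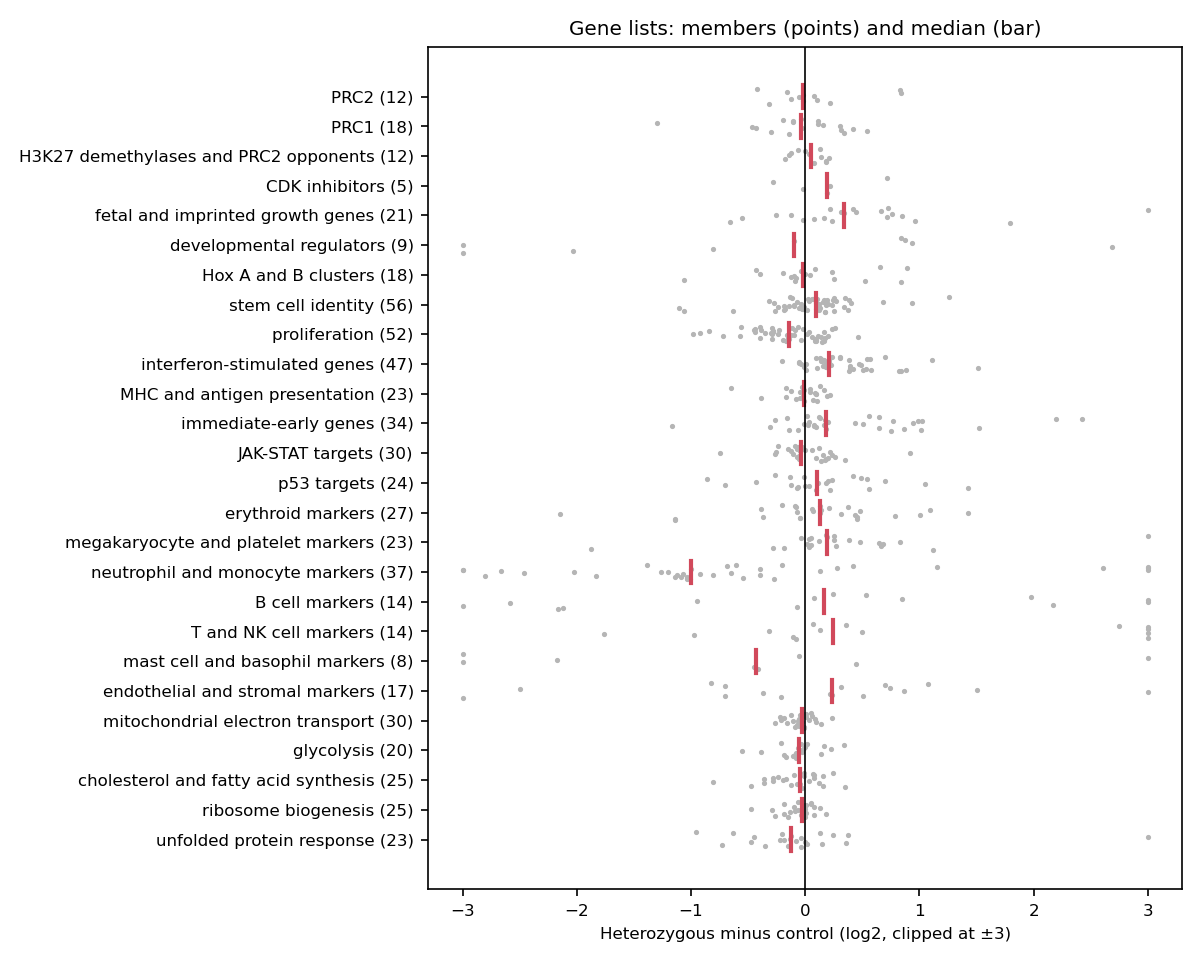
Each row is a gene list with its number of tested genes, grey points are the log2 changes of its members (heterozygous minus control, clipped at ±3), red bars the list medians and the black line the median over all 14945 genes, 0.002. Interferon-stimulated genes (median 0.21) and fetal and imprinted growth genes (0.34) lie mostly right of the line, and neutrophil and monocyte markers (-1) left of it.

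Markers of other blood cells varied among libraries of the same group. The 37 neutrophil and monocyte markers had a median log2 change of -1 in the fit, and all 19 granule genes were negative. Without the term for sex the median was -0.39, in batch 2 alone -0.41 and with the replicate number as a block -0.14, while it was -1.09 in batch 1 alone and -0.98 without the 2 doubted libraries. Leaving out control batch 1 replicate 1, batch 1 replicate 2 or batch 2 replicate 2 gave -0.54, -0.62 and -0.60. Mpo, myeloperoxidase, measured 1122, 41.9, 179 and 301 CPM in controls and 2.84, 320 and 1281 CPM (lowest, median, highest) in heterozygous libraries (log2 -1.03 ± 1.16), and Elane, neutrophil elastase, 592, 38.3, 149 and 181 CPM against 1.15, 195 and 716 CPM. The heterozygous libraries of batch 2 replicates 2 and 3 were the low ones for both, at 2.84 and 4.56 CPM of Mpo, and the shallowest of the 11, with 14.3 and 13.6 M counts, while the group means of Mpo were 411 CPM in controls and 454 CPM in heterozygous libraries. Summed levels of the list ran from 3037 to 8839 CPM in controls and from 862 to 5710 CPM in heterozygous libraries. No marker passed the test. In bulk libraries, fewer cells of a type and less RNA per cell cannot be told apart.

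Eosinophil granule genes stood out in 1 control. Prg2, eosinophil major basic protein, measured 827 CPM in control batch 1 replicate 1 and at most 3.6 CPM in the other 10 libraries. Epx, eosinophil peroxidase, measured 146 CPM there and at most 1.12 CPM in the other 10. These genes were picked after their values were seen. Without this control, or without the control high in Jchain, edgeR again called 0 genes.

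Erythroid markers (27 genes) had a median log2 change of 0.13, which turned to -0.05 without the 2 doubted libraries and was 0.57 without the term for sex. Alas2, the first enzyme of haem synthesis, measured 1.15 to 8.18 CPM in controls and 1.42 to 37.1 CPM in heterozygous libraries. Hba-a1, alpha globin, measured 2.26 to 72.8 CPM in controls and 0.541 to 165 CPM in heterozygous libraries (log2 -1.14 ± 1.24). It was highest in heterozygous batch 1 replicate 1 and batch 2 replicate 4, at 134 and 165 CPM. The 6 globin genes had a median log2 change of -0.04, with 2 positive. The 16 membrane and haem genes had a median of 0.17, with 12 positive. Megakaryocyte and platelet markers (23 genes) had a median of 0.19, with 19 positive, and of -0.25 in batch 1 alone. Pf4, platelet factor 4, measured 43.8 to 58.2 CPM in controls and 15.8 to 51.0 CPM in 6 heterozygous libraries, with 333 CPM in batch 2 replicate 3. Summed levels of the B cell markers were 355 to 487 CPM in controls and 370 to 544 CPM in heterozygous libraries, of which Cd24a, which other blood cells also carry, made up 326 and 386 CPM on average. Those of the T and NK cell markers were 281 to 322 CPM and 208 to 343 CPM. Of the defining markers, Pax5 had no count in the 11 libraries, and Cd3e was at 0 in all 4 controls and 6 of 7 heterozygous libraries. Cd4, which helper T cells and some progenitors carry, measured 0 to 0.191 CPM in controls and 0 to 7.80 CPM in heterozygous libraries (edgeR adjusted p = 0.901), with 6 of 7 above every control. Mast cell and basophil markers (8 genes) had a median log2 change of -0.43 (-1.03 in batch 1 alone, 0.09 in batch 2 alone, -1.17 without the 2 doubted libraries). They summed to 459 to 578 CPM in controls and 394 to 707 CPM in heterozygous libraries, in a list that includes Gata2, also a stem cell gene. Of the defining members, Cpa3 reached at most 13.1 CPM, Ms4a2 3.52 CPM, Fcer1a 2.79 CPM and Mcpt8 2.0 CPM in the 11 libraries. Endothelial and stromal markers (17 genes) had a median of 0.24 (0.09 without the term for sex) and summed to 291 to 448 CPM and 328 to 479 CPM, with Cdh5, which defines endothelial cells, at most at 3.10 CPM. The part of these cells in the results was not tested.

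**Figure D5:**
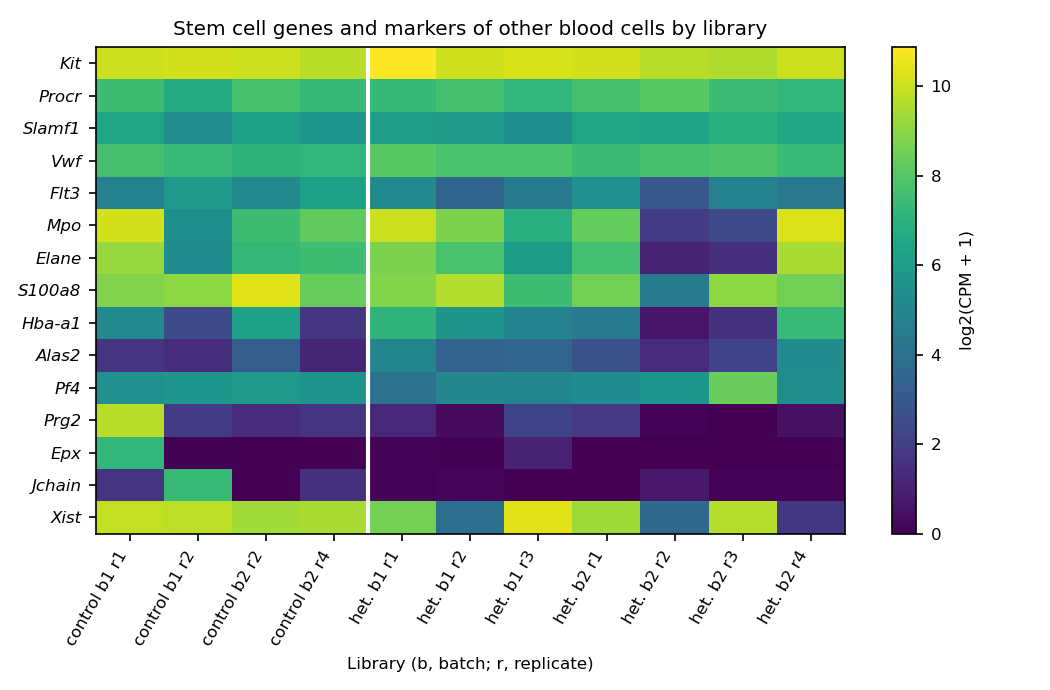
Levels as log2(CPM + 1) of stem cell genes (upper rows) and markers of other blood cells in the 4 control and 7 libraries labelled heterozygous. Mpo and Elane are lowest in heterozygous batch 2 replicates 2 and 3 (Mpo 2.84 and 4.56 CPM, Elane 1.15 and 1.85 CPM). Prg2 and Epx are high in control batch 1 replicate 1 alone, and Xist is at 391 CPM in heterozygous batch 1 replicate 1, labelled male.

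The effect of a single allele was next set beside the loss of both. The test of null against heterozygous libraries called 0 of 14945 genes with edgeR (0.00%; 793, or 5.31%, at an unadjusted p under 0.05), and its smallest adjusted p was 0.166. limma-voom called 0 and the DESeq2 Wald test 163. That value was shared by Gas2l3, Exosc1, Grtp1 and Socs2. Gas2l3, which links microtubules and actin, measured 148 ± 39.0 CPM in controls, 150 ± 41.0 CPM in heterozygous and 85.0 ± 25.4 CPM in null libraries (null minus heterozygous, log2 -0.85 ± 0.17). Exosc1, a subunit of the RNA exosome, measured 79.4 ± 12.4, 75.8 ± 6.23 and 50.01 ± 4.14 CPM (log2 -0.60 ± 0.13). Socs2, a feedback inhibitor of cytokine signalling, measured 41.1 ± 13.3, 57.0 ± 28.4 and 28.8 ± 7.44 CPM (log2 -1.04 ± 0.22). Grtp1 ran the other way, at 6.11 ± 1.05 CPM in controls, 1.54 ± 1.11 CPM in heterozygous and 6.56 ± 2.90 CPM in null libraries (log2 2.31 ± 0.49), and all 7 heterozygous libraries lay below all controls. Ezh2 did not pass either, at 22.9 ± 3.86 CPM in null libraries (null minus heterozygous, log2 -0.62 ± 0.22, edgeR adjusted p = 0.825).

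Null and heterozygous libraries were each compared with the same 4 controls, so the values of the genes of smallest p are given side by side without a test. The log2 values against control in heterozygous and in null libraries were -1.21 and -1.17 for Faah, -0.72 and -0.70 for Orai3, 1.52 and 1.27 for Ppfibp1, and 0.75 and 0.26 for Svip.

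With JAK2-V617F the same allele loss was compared by the difference of the effects. edgeR called 0 of 14945 genes (0.00%; 622, or 4.16%, at an unadjusted p under 0.05), limma-voom 0 and the DESeq2 Wald test 107. The 3 smallest p-values belonged to Ntf3, Pcdhb13 and Jchain, with adjusted p-values of 0.331, 0.967 and 0.967. Ntf3, a neurotrophin, measured 0.143, 0, 2.09 and 1.68 CPM in controls and was at 0 in 6 of 7 heterozygous libraries. Pcdhb13 measured 0.571, 2.78, 0 and 0 CPM in controls and was at 0 in 6 of 7 heterozygous libraries as well. Both genes were at 0 in every library with JAK2-V617F alone. Among expressed genes, Faah, Orai3 and Ppfibp1 had log2 values of -1.21, -0.72 and 1.52 without JAK2-V617F and of 0.22, 0.02 and -0.29 with it. These 3 genes were chosen by their small p without JAK2-V617F, and that effect enters the difference. Their values therefore cannot show whether the effect differs with JAK2-V617F. The tests of these 3 differences each had an adjusted p of 0.967. For Ezh2 the values were -0.32 and -0.65, a difference of 0.33 ± 0.30 (edgeR adjusted p = 1).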

How the data were processed

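The gene lists and their members were chosen with earlier results of these data known. The authors deposited raw read counts per Entrez gene for each library, 19138 genes and 1 part of Ezh2, which was kept out of all tests and library sizes. Per the submitters' processing notes, STAR and build mm9 were used. An aligner version, counting tool, annotation or use of strand is not given in the labels or headers, so that genes overlapping on opposite strands may share counts. A reference of build GRCm38 gave names for 19075 genes, and GENCODE M21 the Ezh2 exons. Gene lengths were deposited beside the counts. Per the labels' protocols, RNA of 1000 sorted cells entered a SMARTer low-input preparation without molecular identifiers being named.

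All 35 libraries entered 1 fit of edgeR 4.0.16 (quasi-likelihood, robust) with group, batch and labelled sex as terms, which pools the spread over groups, after TMM scaling (factors 0.937 to 1.062) and edgeR's low-count filter, which removed 4193 genes. A gene was called where its Benjamini-Hochberg adjusted p, over all 14945 genes of a comparison, lay under 0.05. The DESeq2 Wald test was run without that filter, on 19138 genes in each comparison. CPM use TMM-scaled totals without a pseudocount. The log2 changes of edgeR carry its small default prior count, which keeps them finite where a group has no counts. Shares of the exon part were compared by exact permutation. No label ties a library to an animal, so p-values measure the spread between libraries, which may be technical. Named were the PRC2 genes, the 10 genes of smallest p in each direction above a mean log2 CPM of 3 (no gene being called), the 2 of smallest p in each list, and the 3 of smallest p in the other 2 tests. The text describes some of these, and 1 gene among the 10 of smallest p in the lower direction is not reported here. Predicted genes and Xist, apart from the label check, were left out. Other genes are marked where named or stand as members of a list. Same-numbered control and heterozygous libraries had correlations of -0.008 to 0.04 over 4 pairs. The 2 controls of a batch gave mirrored values, such as 0.04 and -0.04. The pairs are therefore not independent and cannot decide whether same-numbered libraries belong together. DESeq2 1.42.0, limma-voom (limma 3.58.1) and Python 3.11.15 were also used.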

Additional observations from a re-analysis of the deposited data

Results flagged for a closer look

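In each group the highest or lowest library was compared with its nearest neighbour (Dixon's 95% critical value). It stood apart in 26 of 228 sets of values (11.4%), where chance gives about 1 in 20, and many sets are sparse counts with most libraries at 0. Explanations were not tested.

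Among expressed genes, the heterozygous library of batch 2 replicate 2 was high for Neo1 (81.2 CPM, others at most 42.7), Socs2 (119.6 CPM, others at most 56.6) and Gas2l3 (233.9 CPM, others at most 153.1). Prkcq was low in heterozygous batch 1 replicate 2 (61.1 CPM, others at least 86.1). Control batch 1 replicate 2 was high for Rbbp7 (295 CPM, others at most 264), Jchain (160.0 CPM) and Ccr2, a monocyte receptor (28.5 CPM, others at most 4.74), and low for Slc2a1, a glucose transporter (35.3 CPM, others at least 75.1).

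Genes at low levels stood apart in 1 library each. In controls these were Tbx15 (0.619 CPM) and Il1rl1 (3.24 CPM) in batch 1 replicate 1, and Alas2 (8.18 CPM) and Stab2 (0.976 CPM) in batch 2 replicate 2. In heterozygous libraries they were Lepr (3.28 CPM) in batch 1 replicate 1, and Igll1 (3.02 CPM) and Il1rl1 (1.79 CPM) in batch 2 replicate 1. Jchain (0.609 CPM) stood apart in batch 2 replicate 2, Fcgr1 (2.99 CPM) and Cd6 (10.3 CPM) in batch 2 replicate 3, and Ms4a1 (8.28 CPM), Ntf3 (0.825 CPM) and Pcdhb13 (0.736 CPM) in batch 2 replicate 4.

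Of the summed list levels, PRC1 genes were low in control batch 2 replicate 4 (703 CPM, others at least 777) and high in heterozygous batch 1 replicate 3 (999.9 CPM, others at most 804). Heterozygous batch 1 replicate 1 was high for megakaryocyte and platelet markers (5014 CPM, others at most 4259) and low for T and NK cell markers (208 CPM, others at least 299). The summed mast cell and basophil list was high in heterozygous batch 2 replicate 3 (707 CPM, others at most 505). The mean log2(CPM + 1) of its members was 1.48 there, below every control (1.75 to 2.93), and its member Hdc had no count.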

How the results depend on the processing

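The count of called genes for heterozygous against control stayed at 0 with edgeR under the size factors of DESeq2, no low-count filter, no term for sex, the 11 libraries alone with and without that term, batch 1 alone, females alone, without the 2 doubted libraries, without each of the 11 libraries in turn and, an alternative chosen after seeing the data, without robust estimation. It also stayed at 0 with limma-voom. It was 122 with the DESeq2 Wald test, 1 with the replicate block (Orai3) and 1 in batch 2 alone (Grsf1). DESeq2 called 107 genes for the difference with JAK2-V617F and 163 for null against heterozygous. The block called 0 genes in both. No label pairs the libraries by number, and the correlations of same-numbered libraries cannot decide whether they belong together. Null against heterozygous gave 0 to 1 genes when single libraries were left out, Gas2l3 without heterozygous batch 2 replicate 1 (edgeR adjusted p = 0.0355) and Coro2a, which lay outside the naming rule, without null batch 2 replicate 1 (edgeR adjusted p = 0.0153). The cause was not tested. The difference in the exon part was negative in all alternatives and below p of 0.05 in none, which neither batch alone could reach.

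Log2 values of the named genes kept their sign in 2008 of 2049 alternatives. The reversals were mostly of values near 0. Eed turned to 0.097 with limma-voom, 0.037 without the term for sex, in the full fit and over the 11 libraries, 0.160 with the block and 0.163 in batch 1 alone, and single left-out libraries gave -0.114 to 0.061. Suz12 turned to -0.015 and -0.019 without the term for sex and -0.079 in batch 2 alone (left-out libraries -0.030 to 0.264). Rbbp7 turned to 0.068 over the 11 libraries and 0.053 in females alone (left-out -0.090 to 0.001). Aebp2 turned to 0.059 with limma-voom and 0.168 with the block (left-out -0.147 to 0.068), and Jarid2 ranged from -0.004 to 0.142 with single libraries left out. Batch 2 alone gave 0.046 for Mtf2, -0.057 for Kmt2d, 6.88 for Il1rl1, 2.10 for Pcdhb13 and 0.019 for Gas2l3, and batch 1 alone -1.78 for Cd6. Socs2 turned to -0.052 over the 11 libraries and -0.047 in females alone. Exosc1 turned to 0.057 with the block and 0.017 without the 2 doubted libraries. Left-out libraries gave -0.150 to 0.019 for Exosc1, -0.167 to 0.158 for Gas2l3 and -6.51 to 6.17 for Il1rl1. List medians moved by more than the spread between heterozygous libraries in 46 of 624 alternatives, mostly for lists of sparse markers.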
